A study of Mus musculus with 16 samples.

Results

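Matrix metalloproteinases (Mmp genes), the membrane-bound ADAM proteinases (Adam), the secreted ADAMTS proteinases (Adamts), the ADAMTS-like matrix proteins (Adamtsl) and the tissue inhibitors of metalloproteinases (Timp) were examined in tibialis anterior muscle of male C57BL/6N mice aged 7 weeks. The members were the protein-coding genes whose symbol begins with one of these 5 family names followed by a number and whose counts summed to at least 160 over all libraries. They numbered 47 of the 30037 genes in the table, with 4 Timp, 10 Mmp, 12 Adam, 16 Adamts and 5 Adamtsl genes, and a further 20 genes with such a symbol were under the minimum. The 16 RNA-seq libraries came from Dnm2SL/+ mice, a model of dominant centronuclear myopathy with 1 mutant allele of the dynamin 2 gene, and from wild-type (WT) mice, each injected with ASO1, an antisense oligonucleotide that lowers Dnm2, or with a control oligonucleotide (ASO Control). There were 4 libraries of Dnm2SL/+ ASO1, 6 of Dnm2SL/+ ASO Control, 2 of WT ASO1 and 4 of WT ASO Control. The deposited design text gives each group 3 to 6 replicates, which the 2 WT ASO1 labels do not match, and it records a later correction to the title and treatment of WT ASO Control 4 and to the labels of the count table. Every mouse thus carried an injected oligonucleotide, no uninjected group was analysed, and the doses, the injection times and whether animals were pooled were not given in the sources used here.

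Matrix metalloproteinases cut collagens, proteoglycans and other matrix proteins, and most are made as inactive precursors. ADAM proteinases sit in the plasma membrane and shed the outer part of growth factors, cytokines and receptors, while some members of the family have lost catalytic activity and act in adhesion. ADAMTS proteinases process procollagens and large proteoglycans, and the ADAMTS-like proteins resemble them but lack the proteinase domain. TIMPs block metalloproteinases by binding the active site. In skeletal muscle these genes are expressed by fibres, fibroblast-like cells, vessels and infiltrating leukocytes, and they take part in matrix turnover during growth and repair.

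Library totals ranged between 30148163 and 33667052 counts, of which the 47 members took 0.0688 to 0.1204%. Dnm2, the targeted gene, was at 26.6 to 35.2 CPM (counts scaled to the library's size) in Dnm2SL/+ ASO1, 35.2 to 65.1 CPM in Dnm2SL/+ ASO Control, 23.0 and 25.0 CPM in WT ASO1 and 45.4 to 57.2 CPM in WT ASO Control. The library labelled Dnm2SL/+ ASO Control 6 was the lowest of its group for Dnm2, at 35.2 CPM, level with the highest Dnm2SL/+ ASO1 library. The library labelled WT ASO Control 1 stood above the other 3 of its group in markers of fibro-adipogenic progenitors, macrophages and tendon, and in several members given below. Results for members that rest on these 2 libraries are given with and without them. Counts and medians over cell type markers and other lists of genes are given with all libraries only. In whole muscle, fewer cells of a type and less RNA per cell cannot be told apart.

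All 47 members passed the filter on low counts and were tested. Levels were compared between genes on group means per kilobase of exon. Timp3 was first in Dnm2SL/+ ASO1 at 32.2 CPM per kilobase, in WT ASO1 at 29.1 and in WT ASO Control at 38.0, and Timp2 was first in Dnm2SL/+ ASO Control at 33.3, where Timp3 was at 25.3 CPM per kilobase. Adam9 was at 20.4 CPM per kilobase in Dnm2SL/+ ASO1, 17.8 in Dnm2SL/+ ASO Control, 22.4 in WT ASO1 and 24.0 in WT ASO Control. Mmp2 was at 13.2, 22.3, 8.33 and 11.6 CPM per kilobase and Timp1 at 3.31, 20.3, 1.02 and 0.955 CPM per kilobase in the same groups. The lowest member by summed count was Adamts16 with 175 counts, and next to it stood Mmp9, the gelatinase B of leukocytes, with 214 counts. The nearest genes under the minimum were Mmp27 with 144 and Adam4 with 131 counts. On chromosome 9 (GRCm38, 7272514 to 7674979), 7 Mmp genes of the count table lie in 1 stretch, and 6 of them were under the minimum, the exception being Mmp3, stromelysin 1. These 6 include the collagenase genes Mmp8 and Mmp13 and the macrophage elastase gene Mmp12.

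The effect of the mutation was read from Dnm2SL/+ ASO Control against WT ASO Control. Of the 47 members, 14 rose and 4 fell in Dnm2SL/+ ASO Control (edgeR quasi-likelihood test, adjusted p under 0.05), against 15.7% of all genes tested higher and 16.4% lower, 32.1% in either direction. The members that rose were Timp1, Timp2, Mmp2, Mmp14, Mmp19, Adam8, Adam10, Adam17, Adam19, Adam23, Adamts7, Adamts17, Adamts20 and Adamtsl5, and those that fell were Timp3, Timp4, Adam9 and Adam22. The median log2 fold change (log2FC) over the members was 0.33, and over all genes tested it was 0.00224. In 10 members every Dnm2SL/+ ASO Control library was above every WT ASO Control library, and in 3 every one was below, where such a lack of overlap was found in 11.3% of all genes upwards and 12% downwards. Without both libraries named above, a comparison added after seeing the data, 17 members were higher and 4 lower.

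ASO1 in the mutant was read from Dnm2SL/+ ASO1 against Dnm2SL/+ ASO Control. The test called 9 of the 47 members, against 15.0% of all genes in either direction. Timp1, Timp2, Mmp2, Mmp19, Adam23, Adamts20 and Adamtsl5 fell in Dnm2SL/+ ASO1 (7 members, 8.06% of all genes), and Mmp28 and Adam22 rose (2 members, 6.96% of all genes). Without both libraries, 9 members were lower and 3 higher. This comparison and the one before share the Dnm2SL/+ ASO Control libraries, so that a high or low value there enters both with opposite sign, and their values are set side by side without a test of their overlap.

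**Figure D1:**
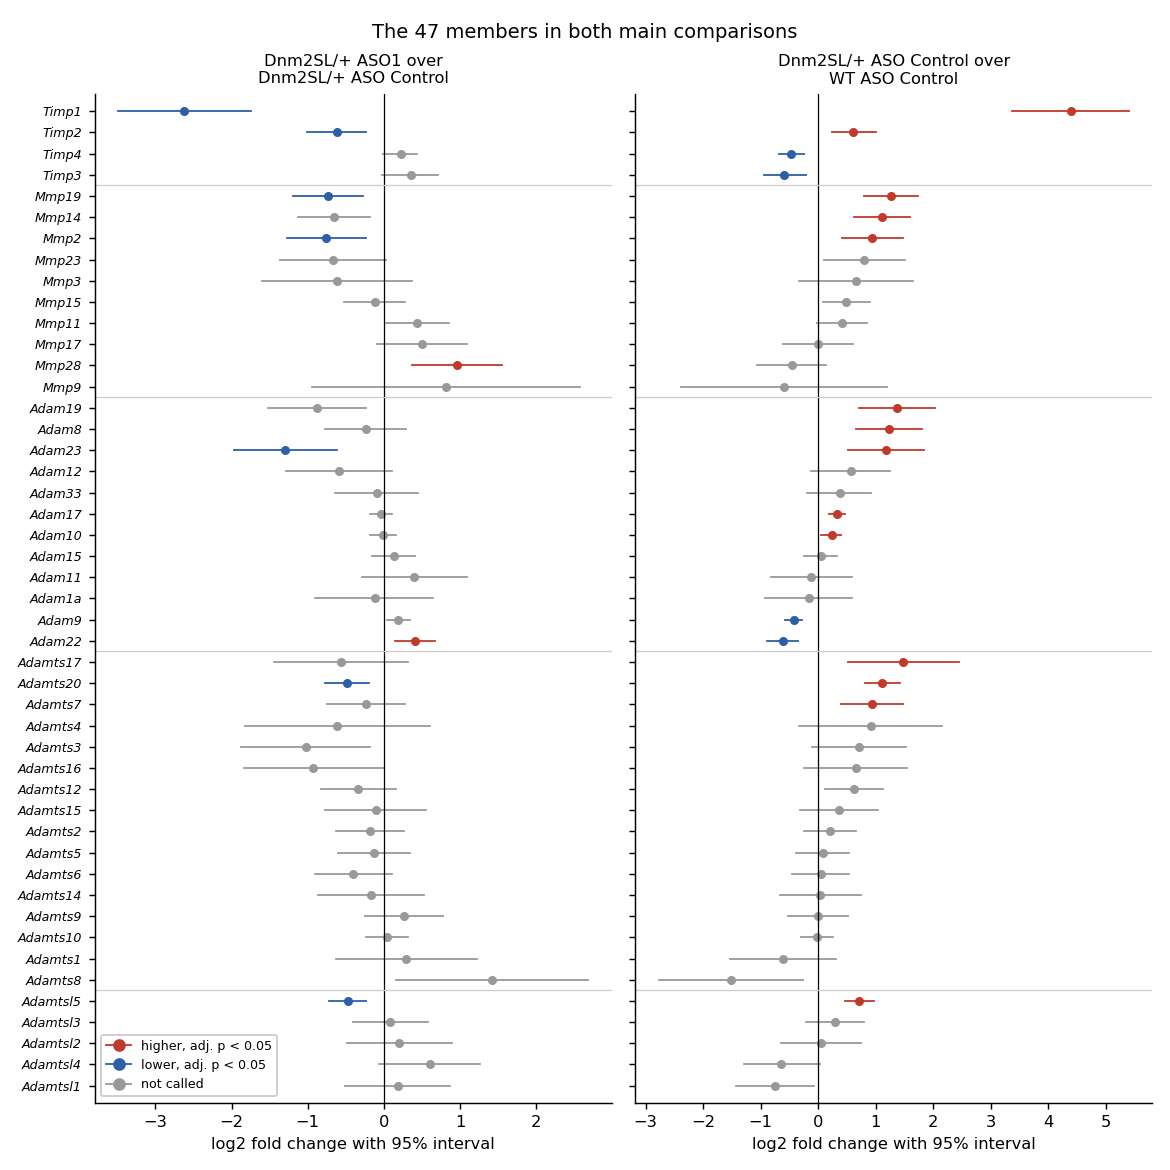
Log2 fold change (x axis) of each of the 47 members (rows, grouped by family) from edgeR, with a 95% interval computed from its SE. The left panel gives Dnm2SL/+ ASO1 over Dnm2SL/+ ASO Control (4 and 6 libraries) and the right panel Dnm2SL/+ ASO Control over WT ASO Control (6 and 4 libraries), which share the Dnm2SL/+ ASO Control libraries. Red points rose and blue points fell at an adjusted p under 0.05, and grey points were not called. Timp1 lies farthest from 0 in both panels, at -2.62 on the left and 4.39 on the right.

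The 4 inhibitors differed in direction. Timp1, an inducible secreted inhibitor, was low in WT muscle. It was at 1.87, 1.25, 5.33 and 3.30 CPM in Dnm2SL/+ ASO1, at 15.8 to 21.0 CPM with a median of 18.2 CPM in Dnm2SL/+ ASO Control, at 1.17 and 0.647 CPM in WT ASO1 and at 2.02, 0.622, 0.275 and 0.477 CPM in WT ASO Control. The 6 Dnm2SL/+ ASO Control libraries lay above all others. The log2FC of the mutation was 4.39 ± 0.465 (SE, adjusted p = 7e-06, edgeR), a 20.9-fold difference, and without the library WT ASO Control 1, the highest of its group, it was 5.28. ASO1 in Dnm2SL/+ gave -2.62 ± 0.402 (adjusted p = 0.00081), which left 16.3% of the level. Dnm2SL/+ ASO1 still exceeded WT ASO Control with a log2FC of 1.77 ± 0.483 (adjusted p = 0.049), although the ranges overlapped through WT ASO Control 1. Without that library the value was 2.66 (adjusted p = 0.0072). With the replicate number as a block, the adjusted p was 0.13, and leaving out any library other than Dnm2SL/+ ASO1 1 or 2 or WT ASO Control 1 also lost this call, with adjusted p up to 0.13.

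Timp2, which inhibits and also helps to activate pro-Mmp2 at the cell surface, was at 75.7, 60.2, 110 and 91.9 CPM in Dnm2SL/+ ASO1, at 124 to 136 CPM with a median of 130 CPM in Dnm2SL/+ ASO Control, at 70.4 and 70.9 CPM in WT ASO1 and at 129, 70.8, 76.2 and 63.5 CPM in WT ASO Control. All Dnm2SL/+ ASO Control libraries were above all Dnm2SL/+ ASO1 libraries, while WT ASO Control 1 lay inside their range. The mutation gave a log2FC of 0.61 ± 0.177 (adjusted p = 0.015, edgeR) and ASO1 in Dnm2SL/+ gave -0.62 ± 0.177 (adjusted p = 0.027). Without WT ASO Control 1 the mutation contrast gave 0.89 (adjusted p = 0.00022), and without WT ASO Control 2 or 4 its call was lost, with adjusted p up to 0.059. The ASO1 call was lost without Dnm2SL/+ ASO1 1 or 2 or Dnm2SL/+ ASO Control 2, and with the replicate block, with adjusted p up to 0.086.

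Timp3, the inhibitor bound to the matrix, was at 291, 203, 271 and 284 CPM in Dnm2SL/+ ASO1, at 184 to 286 CPM with a median of 191 CPM in Dnm2SL/+ ASO Control, at 190 and 284 CPM in WT ASO1 and at 291, 219, 397 and 332 CPM in WT ASO Control. A single library, Dnm2SL/+ ASO Control 1 at 286 CPM, reached into the WT ASO Control range, the other 5 being at 184 to 198 CPM. The log2FC of the mutation was -0.59 ± 0.168 (adjusted p = 0.014, edgeR), and that of ASO1 in Dnm2SL/+ was 0.35 ± 0.169 (adjusted p = 0.19). The fall was not called with library size alone as scaling, with the replicate block, or without WT ASO Control 3, where its adjusted p reached 0.093. Without Dnm2SL/+ ASO Control 1 the ASO1 contrast gave 0.46 and was called (adjusted p = 0.047).

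Timp4, an inhibitor known for its high expression in heart and other muscle, was at 44.6, 48.8, 50.6 and 45.4 CPM in Dnm2SL/+ ASO1, at 29.8 to 50.5 CPM with a median of 41.5 CPM in Dnm2SL/+ ASO Control, at 58.1 and 56.6 CPM in WT ASO1 and at 59.8, 53.5, 57.9 and 53.9 CPM in WT ASO Control. Every Dnm2SL/+ library, with either oligonucleotide, was under every WT library. The log2FC was -0.47 ± 0.103 for the mutation (adjusted p = 0.0026, edgeR) and 0.22 ± 0.103 for ASO1 in Dnm2SL/+ (adjusted p = 0.17), or 0.29 without the library labelled Dnm2SL/+ ASO Control 6 (adjusted p = 0.042) and 0.34 with the replicate block (adjusted p = 0.029). With library size alone as scaling, which moved the median of all genes by 0.226, the fall was not called (adjusted p = 0.074). Timp3 and Timp4 each overlap a synapsin gene, Syn3 and Syn2, on the other strand. Such an overlap with some gene on the other strand was found for 14 of the 47 members. Adam8, Adam19, Adamts7, Mmp19 and Mmp28, described below, are among them. The library kit marks strand, but the strand setting of the counting was not given in the sources used here.

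**Figure D2:**
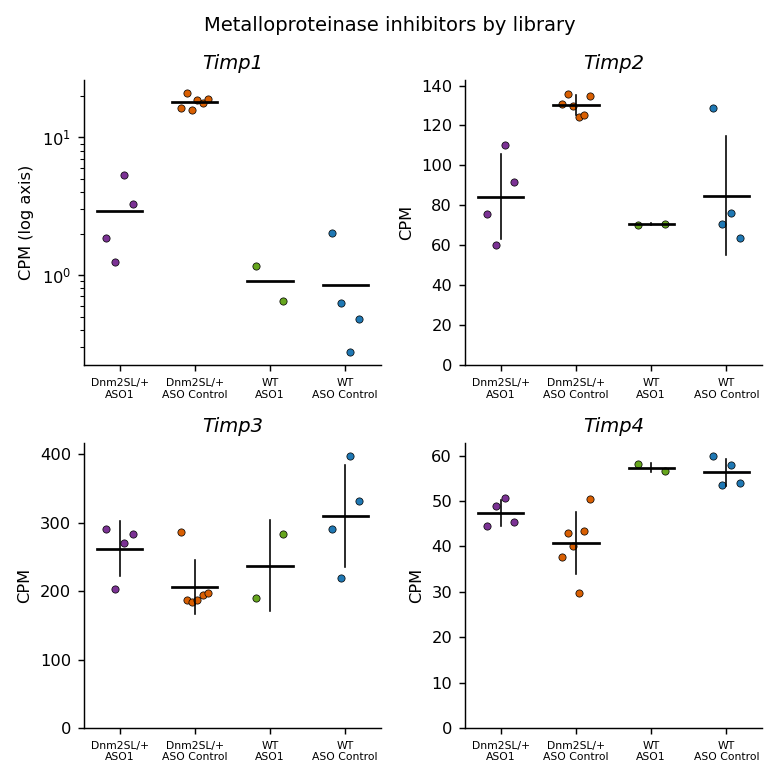
CPM (y axis) of Timp1, Timp2, Timp3 and Timp4 in each library (points) of Dnm2SL/+ ASO1, Dnm2SL/+ ASO Control, WT ASO1 and WT ASO Control (x axis, left to right). Horizontal lines are group means and vertical lines are SDs, which are not drawn on the log axis of Timp1. Timp1 and Timp2 were highest in Dnm2SL/+ ASO Control, with medians of 18.2 and 130 CPM, and Timp4 was at most 50.6 CPM in the Dnm2SL/+ libraries.

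The 250 bases before the RefSeq start of the 4 inhibitor genes (GRCm38.p6) are shown because these genes moved in opposite directions in the same muscles. Capitals mark matches on either strand to any of 3 motifs searched, the AP-1 motif TGANTCA, the GC box GGGCGG and the TATA box TATAAA. The strand and position are chrX:20869916-20870165 on the plus strand for Timp1, chr11:118355412-118355661 on the minus strand for Timp2, chr10:86300162-86300411 on the plus strand for Timp3 and chr6:115252206-115252455 on the minus strand for Timp4, and each is written 5′ to 3′ on the strand of the gene.
Timp1: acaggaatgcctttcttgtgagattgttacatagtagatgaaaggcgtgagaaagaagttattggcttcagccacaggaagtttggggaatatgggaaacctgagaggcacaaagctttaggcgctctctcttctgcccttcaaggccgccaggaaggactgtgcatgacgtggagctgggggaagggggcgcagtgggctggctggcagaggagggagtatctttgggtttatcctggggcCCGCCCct
Timp2: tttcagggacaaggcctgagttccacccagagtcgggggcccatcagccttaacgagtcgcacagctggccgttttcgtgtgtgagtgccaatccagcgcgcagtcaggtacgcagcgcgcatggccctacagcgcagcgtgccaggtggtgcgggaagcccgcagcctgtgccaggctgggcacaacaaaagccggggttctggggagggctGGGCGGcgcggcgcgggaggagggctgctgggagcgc
Timp3: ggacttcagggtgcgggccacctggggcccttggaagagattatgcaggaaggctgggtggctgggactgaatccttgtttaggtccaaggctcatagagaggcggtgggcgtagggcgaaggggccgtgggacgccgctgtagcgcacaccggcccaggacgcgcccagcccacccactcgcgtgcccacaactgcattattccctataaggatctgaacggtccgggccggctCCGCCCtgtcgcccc
Timp4: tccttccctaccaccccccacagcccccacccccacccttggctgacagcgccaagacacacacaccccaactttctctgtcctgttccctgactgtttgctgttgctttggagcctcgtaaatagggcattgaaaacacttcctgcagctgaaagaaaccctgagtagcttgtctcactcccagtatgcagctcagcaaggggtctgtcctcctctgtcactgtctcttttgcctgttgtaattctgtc
The capitals are 1 GC box in each of Timp1, Timp2 and Timp3, and Timp4 held none of the 3 motifs. Of the 47 members, 30 matched the RefSeq promoter table by symbol, with 33 start sites. The GC box was in 63.6% of these windows and in 32.7% of the 32851 mouse promoter windows of this length, the AP-1 motif in 6.06% and 6.75%, and the TATA box in 9.09% and 12.4%. AP-1 matches were found before Mmp3 and before 1 of the 3 starts of Adam19. Among the members that rose with the mutation and had a promoter in the table, 8 of 11 held a GC box, among those that fell 1 of 3, and among those not called 12 of 16.

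Against 15.7% of all genes higher and 16.4% lower, 3 of 10 Mmp genes rose with the mutation and none fell. Their median log2FC was 0.57. Their summed level averaged 104 CPM in Dnm2SL/+ ASO1, 145 CPM in Dnm2SL/+ ASO Control, 71.2 CPM in WT ASO1 and 83.7 CPM in WT ASO Control. Of these means, Mmp2 alone made up 44.4, 75.0, 28.1 and 39.0 CPM. The sum was 125 to 162 CPM in Dnm2SL/+ ASO Control and 63.4 to 116 CPM in WT ASO Control, where WT ASO Control 1 was the highest. Mmp2, gelatinase A of fibroblast-like cells, was the most counted. It was at 33.3, 36.6, 48.3 and 59.5 CPM in Dnm2SL/+ ASO1, at 55.8 to 98.2 CPM with a median of 75.9 CPM in Dnm2SL/+ ASO Control, at 25.8 and 30.3 CPM in WT ASO1 and at 64.4, 27.9, 37.4 and 26.2 CPM in WT ASO Control. WT ASO Control 1 was the one WT library that reached the Dnm2SL/+ ASO Control range. The log2FC was 0.94 ± 0.240 for the mutation (adjusted p = 0.007, edgeR), or 1.30 without that library, and -0.76 ± 0.238 for ASO1 in Dnm2SL/+ (adjusted p = 0.043). The ASO1 call was lost in 12 of 26 alternative fits, with the replicate block and without any one of Dnm2SL/+ ASO1 1 to 3, Dnm2SL/+ ASO Control 1 to 5, either WT ASO1 library or WT ASO Control 3, with adjusted p up to 0.13.

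Mmp14, the membrane-bound activator of pro-Mmp2, was at 9.54, 14.8, 13.3 and 17.4 CPM in Dnm2SL/+ ASO1, at 15.4 to 25.8 CPM with a median of 22.8 CPM in Dnm2SL/+ ASO Control, at 8.46 and 11.6 CPM in WT ASO1 and at 15.2, 8.65, 9.88 and 6.49 CPM in WT ASO Control. Dnm2SL/+ ASO Control lay above WT ASO Control without overlap. The log2FC of the mutation was 1.11 ± 0.224 (adjusted p = 0.0014, edgeR), and that of ASO1 in Dnm2SL/+ was -0.65 ± 0.219, which missed the threshold (adjusted p = 0.056) and passed it without both libraries (adjusted p = 0.023), as it did without Dnm2SL/+ ASO1 4, Dnm2SL/+ ASO Control 5, WT ASO Control 1 or WT ASO Control 4 alone (adjusted p 0.027 to 0.048). Library size alone, DESeq2, voom and a fit of only the groups compared also called this ASO1 contrast. Mmp19, a secreted proteinase of basement membranes, was at 1.94, 2.34, 3.60 and 4.53 CPM in Dnm2SL/+ ASO1, at 4.02 to 6.20 CPM with a median of 5.21 CPM in Dnm2SL/+ ASO Control, at 1.52 and 1.76 CPM in WT ASO1 and at 2.63, 2.02, 2.07 and 1.80 CPM in WT ASO Control. Its log2FC was 1.27 ± 0.217 for the mutation (adjusted p = 0.00038) and -0.73 ± 0.209 for ASO1 in Dnm2SL/+ (adjusted p = 0.028), the ASO1 call being lost in 5 of 26 alternative fits, with only the groups compared or without Dnm2SL/+ ASO1 1 or 2 or Dnm2SL/+ ASO Control 2 or 4, with adjusted p up to 0.088.

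Mmp28, epilysin, moved otherwise. It was at 6.54, 2.47, 5.66 and 6.34 CPM in Dnm2SL/+ ASO1, at 1.40 to 3.70 CPM with a median of 2.76 CPM in Dnm2SL/+ ASO Control, at 2.33 and 3.31 CPM in WT ASO1 and at 3.84, 2.52, 4.54 and 4.00 CPM in WT ASO Control. Of the Dnm2SL/+ ASO1 libraries, 3 were above every other library and 1 was among the lowest. It rose with ASO1 in Dnm2SL/+ by a log2FC of 0.96 ± 0.269 (adjusted p = 0.025, edgeR), whereas the mutation gave -0.46 ± 0.275 (adjusted p = 0.21). The ASO1 call was lost without Dnm2SL/+ ASO1 1, 3 or 4 or Dnm2SL/+ ASO Control 2, with adjusted p up to 0.084. Mmp11, stromelysin 3, was the one Mmp gene called above both WT groups in Dnm2SL/+ ASO1, at 4.64, 3.73, 3.14 and 5.64 CPM in Dnm2SL/+ ASO1 and 2.47 to 3.92 CPM in Dnm2SL/+ ASO Control, against 1.84 and 1.87 CPM in WT ASO1 and 2.63, 2.15, 3.03 and 1.69 CPM in WT ASO Control. Its log2FC was 0.85 ± 0.212 for Dnm2SL/+ ASO1 over WT ASO Control (adjusted p = 0.033) and 1.21 ± 0.276 for Dnm2SL/+ ASO1 over WT ASO1 (adjusted p = 0.03). The first of these calls was lost without Dnm2SL/+ ASO1 1, 2 or 4 or WT ASO Control 2 or 4 (adjusted p up to 0.11), and the second without Dnm2SL/+ ASO1 2 or 4 or either WT ASO1 library (adjusted p up to 0.41). Mmp11 and Chchd10 overlap on opposite strands.

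Mmp15, a membrane-type proteinase, was at 19.3, 40.1, 24.6 and 32.4 CPM in Dnm2SL/+ ASO1, 24.0 to 34.9 CPM with a median of 32.9 CPM in Dnm2SL/+ ASO Control, 26.5 and 20.1 CPM in WT ASO1 and 21.6, 30.4, 17.6 and 20.8 CPM in WT ASO Control, with a log2FC of the mutation of 0.49 ± 0.188 (adjusted p = 0.059, edgeR), which was called without Dnm2SL/+ ASO1 1 or 2, Dnm2SL/+ ASO Control 1 or WT ASO Control 2 (adjusted p 0.017 to 0.035). Library size alone, DESeq2, voom and a fit of only the groups compared also called the mutation contrast of Mmp15. The Dnm2SL/+ ASO1 libraries ran both under and over the Dnm2SL/+ ASO Control range. The other 4 Mmp genes were Mmp3, Mmp9, Mmp17 and Mmp23, whose log2FC of the mutation ran between -0.60 and 0.80, and none was called for either contrast. Mmp23 gave 0.80 for the mutation, and 1.29 without WT ASO Control 1, where it was called (adjusted p = 0.0039), as it was with library size alone, DESeq2 and voom (adjusted p = 0.024, 0.044 and 0.023). Mmp9 was at most 1.36 CPM in every library.

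**Figure D3:**
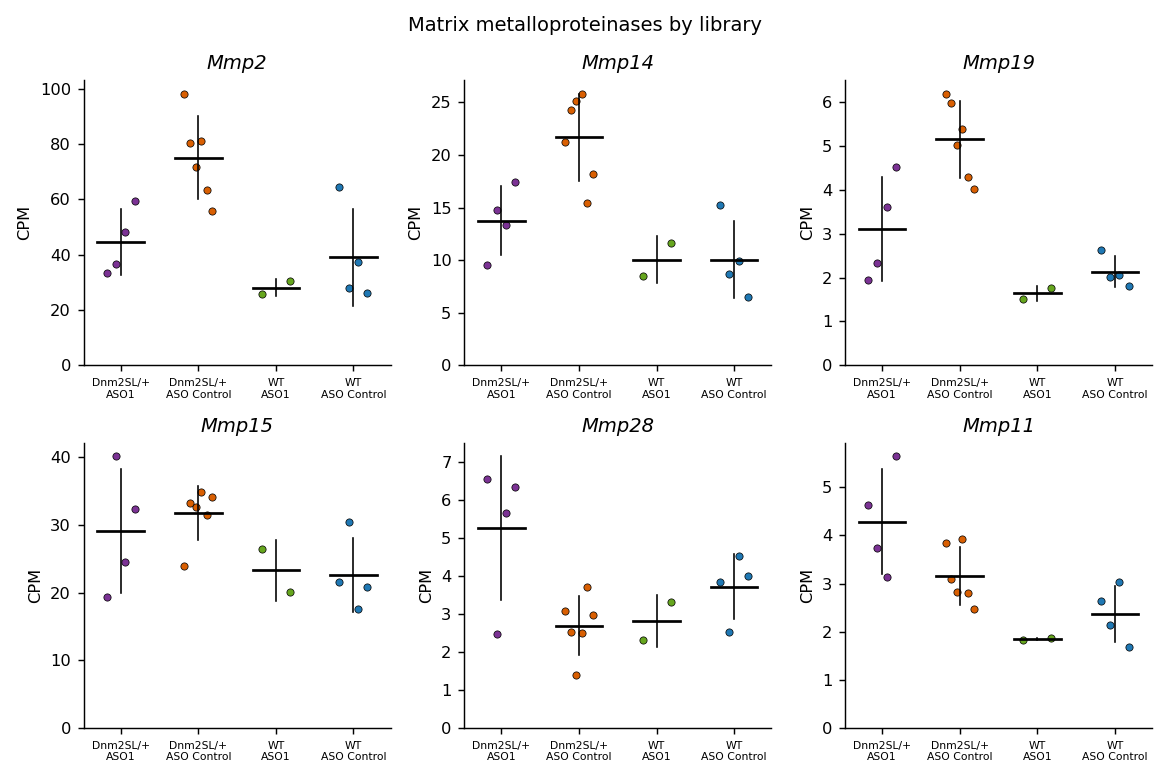
CPM (y axis) of 6 Mmp genes in each library (points) of the 4 groups (x axis). Horizontal lines are group means and vertical lines SDs. Mmp2, Mmp14 and Mmp19 were highest in Dnm2SL/+ ASO Control, with medians of 75.9, 22.8 and 5.21 CPM, and Mmp28 in 3 of the 4 Dnm2SL/+ ASO1 libraries.

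Of the 12 Adam genes, 5 rose and 2 fell with the mutation, a share of 58.3% against 32.1% of all genes. Among the proteinases that shed membrane proteins, Adam17, the TNF-alpha converting enzyme, was at 28.5, 32.8, 30.1 and 36.2 CPM in Dnm2SL/+ ASO1, at 30.5 to 34.4 CPM with a median of 33.2 CPM in Dnm2SL/+ ASO Control, at 22.4 and 23.0 CPM in WT ASO1 and at 26.9, 24.5, 26.8 and 26.4 CPM in WT ASO Control. All 10 Dnm2SL/+ libraries were above all 6 WT libraries. The mutation gave a log2FC of 0.33 ± 0.0647 (adjusted p = 0.0011, edgeR), a 1.26-fold difference, and Dnm2SL/+ ASO1 stayed above WT ASO Control by 0.29 ± 0.0704 (adjusted p = 0.031) and above WT ASO1 by 0.49 ± 0.0883 (adjusted p = 0.016). ASO1 in Dnm2SL/+ gave -0.0434, with a 95% interval of -0.18 to 0.10. The call over WT ASO Control was lost without Dnm2SL/+ ASO1 2 or 4 or WT ASO Control 2, 3 or 4, with adjusted p up to 0.089, and that over WT ASO1 without WT ASO1 1 (adjusted p = 0.37). Adam17 overlaps Iah1 on the other strand.

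Adam10, the main sheddase of Notch receptors, was at 27.0, 32.7, 28.8 and 33.3 CPM in Dnm2SL/+ ASO1, at 28.0 to 33.9 CPM with a median of 29.9 CPM in Dnm2SL/+ ASO Control, at 25.4 and 21.3 CPM in WT ASO1 and at 28.0, 26.0, 26.7 and 23.9 CPM in WT ASO Control. Its log2FC was 0.23 ± 0.0801 for the mutation (adjusted p = 0.038, edgeR), a call lost in 7 of 26 alternative fits, among them without Dnm2SL/+ ASO Control 1 or 4 or WT ASO Control 2, 3 or 4 (adjusted p up to 0.13), and -0.0108 for ASO1 in Dnm2SL/+ (95% interval -0.18 to 0.16). Adam9, a membrane-anchored ADAM proteinase, was at 79.8, 80.9, 94.2 and 80.4 CPM in Dnm2SL/+ ASO1, at 67.5 to 80.0 CPM with a median of 73.5 CPM in Dnm2SL/+ ASO Control, at 94.0 and 90.1 CPM in WT ASO1 and at 92.6, 97.8, 112 and 93.3 CPM in WT ASO Control. Every Dnm2SL/+ ASO Control library was under every WT library. Adam9 fell with the mutation by a log2FC of -0.43 ± 0.0692 (adjusted p = 0.00024). ASO1 in Dnm2SL/+ gave 0.19 ± 0.0695 (adjusted p = 0.073), which passed the threshold without both libraries (adjusted p = 0.041), without Dnm2SL/+ ASO Control 6 alone (adjusted p = 0.039) and with the replicate block (adjusted p = 0.047).

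Adam8, a proteinase of leukocytes, was at 1.15, 2.34, 2.52 and 2.44 CPM in Dnm2SL/+ ASO1, at 1.89 to 3.37 CPM with a median of 2.52 CPM in Dnm2SL/+ ASO Control, at 0.884 and 2.05 CPM in WT ASO1 and at 1.09, 1.06, 0.929 and 1.17 CPM in WT ASO Control. It rose with the mutation by 1.23 ± 0.261 on the log2 scale (adjusted p = 0.002, edgeR), a 2.34-fold difference, and ASO1 in Dnm2SL/+ gave -0.24 with an interval of -0.77 to 0.29. Adam19, a proteinase known for its part in heart development, was at 4.14, 3.79, 4.32 and 8.24 CPM in Dnm2SL/+ ASO1, at 6.23 to 15.2 CPM with a median of 8.28 CPM in Dnm2SL/+ ASO Control, at 1.80 and 1.37 CPM in WT ASO1 and at 5.32, 3.24, 3.68 and 2.31 CPM in WT ASO Control. Dnm2SL/+ ASO Control did not overlap WT ASO Control, with a log2FC of 1.37 ± 0.305 (adjusted p = 0.0029). The log2FC of ASO1 in Dnm2SL/+ was -0.88 ± 0.296 (adjusted p = 0.058), and -1.20 without Dnm2SL/+ ASO1 4, the highest of its group (adjusted p = 0.019). It was also called without Dnm2SL/+ ASO Control 1 or 6 or WT ASO Control 1, with adjusted p between 0.037 and 0.049. Library size alone, DESeq2 and voom called this ASO1 contrast too.

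Adam22 and Adam23 encode catalytically inactive receptors that bind LGI proteins at synapses and nerves, and they moved in opposite directions. Adam23 was at 0.724, 1.12, 1.41 and 0.887 CPM in Dnm2SL/+ ASO1, at 1.25 to 3.79 CPM with a median of 2.58 CPM in Dnm2SL/+ ASO Control, at 0.672 and 1.19 CPM in WT ASO1 and at 1.76, 0.840, 0.860 and 1.03 CPM in WT ASO Control. The library labelled Dnm2SL/+ ASO Control 6 was its group's lowest, at 1.25 CPM, and the other 5 were above every library of the other groups. The log2FC was 1.18 ± 0.306 for the mutation (adjusted p = 0.008, edgeR) and -1.30 ± 0.308 for ASO1 in Dnm2SL/+ (adjusted p = 0.01), and without library 6 these were 1.33 and -1.43. Adam22 was at 2.66, 2.90, 2.49 and 2.34 CPM in Dnm2SL/+ ASO1, at 1.62 to 2.31 CPM with a median of 1.92 CPM in Dnm2SL/+ ASO Control, at 2.33 and 2.73 CPM in WT ASO1 and at 3.23, 2.68, 3.27 and 2.90 CPM in WT ASO Control. Dnm2SL/+ ASO Control lay under all 3 other groups without overlap. Adam22 fell by 0.62 ± 0.121 with the mutation (adjusted p = 0.0011) and rose by 0.41 ± 0.122 with ASO1 in Dnm2SL/+ (adjusted p = 0.036), the ASO1 call being lost in 9 of 26 alternative fits, among them without Dnm2SL/+ ASO1 1, 2 or 3 or Dnm2SL/+ ASO Control 4 or 5, with adjusted p up to 0.15, and without both libraries (adjusted p = 0.053).

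Adam15 was at 37.8 to 48.4 CPM in Dnm2SL/+ ASO1, 32.4 to 50.2 CPM in Dnm2SL/+ ASO Control, 37.9 and 45.3 CPM in WT ASO1 and 31.6 to 46.1 CPM in WT ASO Control, and its log2FC of the mutation was 0.0441 with an interval of -0.24 to 0.32. Adam33, known as an asthma susceptibility gene expressed in mesenchymal cells, was at 4.70 to 5.77 CPM in Dnm2SL/+ ASO1, 5.01 to 6.20 CPM in Dnm2SL/+ ASO Control, 1.91 and 2.70 CPM in WT ASO1 and 7.08, 3.98, 4.13 and 1.61 CPM in WT ASO Control. The mutation gave 0.37 (adjusted p = 0.29, edgeR), or 0.74 without WT ASO Control 1 (adjusted p = 0.02). The remaining Adam11, Adam12 and Adam1a were not called for either contrast, and Adam1a shares exons on its own strand with Gm42878 and Mapkapk5, so its counts are uncertain.

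**Figure D4:**
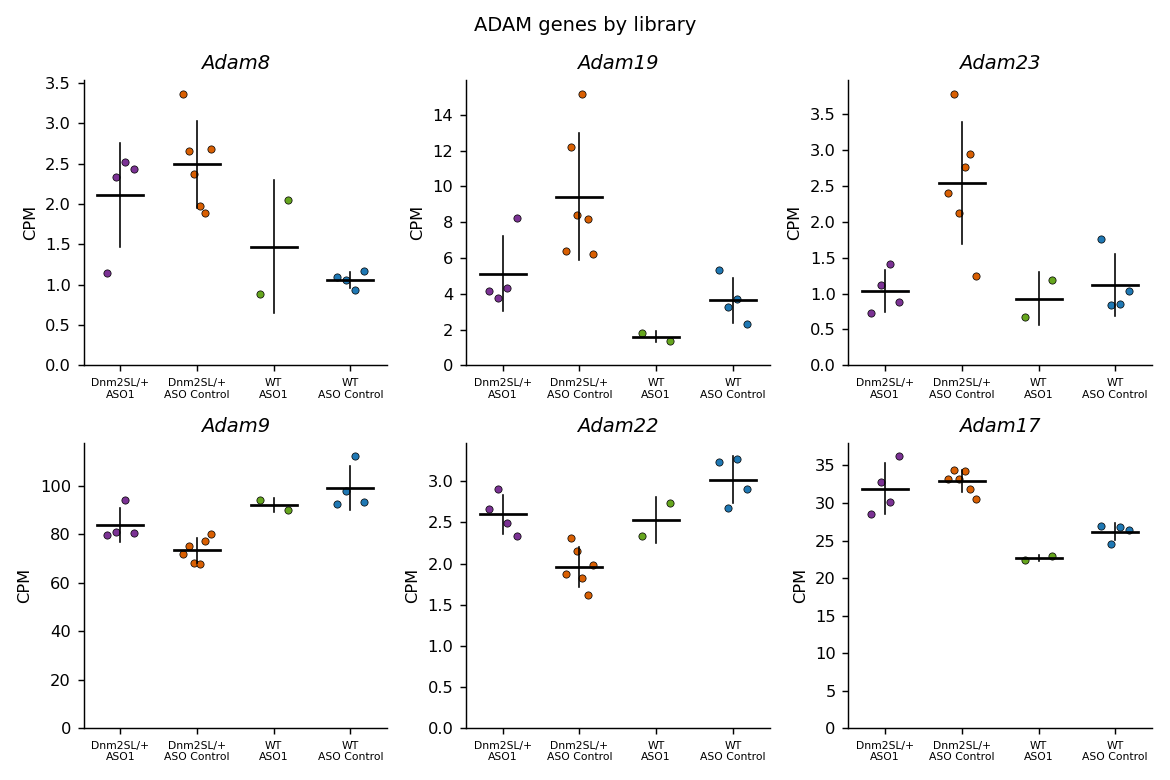
CPM (y axis) of 6 Adam genes in each library (points) of the 4 groups (x axis). Horizontal lines are group means and vertical lines SDs. Adam17 was higher in all 10 Dnm2SL/+ libraries than in all 6 WT libraries, and Adam22 and Adam23 differed in Dnm2SL/+ ASO Control in opposite directions, with medians of 1.92 and 2.58 CPM.

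Of the 16 Adamts genes, 3 rose with the mutation and none fell, a share of 18.8% against 32.1% of all genes. Adamts20, which in mouse is known for pigment cell survival and cleavage of versican, was at 6.78, 5.90, 7.00 and 6.12 CPM in Dnm2SL/+ ASO1, at 6.98 to 11.6 CPM with a median of 8.92 CPM in Dnm2SL/+ ASO Control, at 4.95 and 3.49 CPM in WT ASO1 and at 4.84, 3.92, 4.30 and 3.63 CPM in WT ASO Control. All Dnm2SL/+ libraries were above all WT libraries, and in the mutant the highest ASO1 library, at 7.00 CPM, was just over the lowest ASO Control library. The log2FC was 1.11 ± 0.139 for the mutation (adjusted p = 2.7e-05, edgeR), -0.49 ± 0.134 for ASO1 in Dnm2SL/+ (adjusted p = 0.023) and 0.63 ± 0.149 for Dnm2SL/+ ASO1 over WT ASO Control (adjusted p = 0.028). The ASO1 call was lost without Dnm2SL/+ ASO1 2 or 4 (adjusted p = 0.066 and 0.063), and the call over WT ASO Control without Dnm2SL/+ ASO1 1, 2 or 4 or WT ASO Control 2, 3 or 4, with adjusted p up to 0.087.

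Adamts7, a proteinase of cartilage oligomeric matrix protein, was at 2.86, 3.10, 2.81 and 5.32 CPM in Dnm2SL/+ ASO1, at 3.15 to 5.66 CPM with a median of 3.99 CPM in Dnm2SL/+ ASO Control, at 2.48 and 1.73 CPM in WT ASO1 and at 3.33, 1.74, 1.58 and 2.02 CPM in WT ASO Control. It rose with the mutation by 0.93 ± 0.246 (adjusted p = 0.0086, edgeR), and ASO1 in Dnm2SL/+ gave -0.23 with an interval of -0.75 to 0.28. Adamts17, associated in humans with a Weill-Marchesani-like syndrome, was low, at 0.132 to 0.792 CPM in Dnm2SL/+ ASO1, 0.378 to 0.896 CPM with a median of 0.638 CPM in Dnm2SL/+ ASO Control, 0.212 and 0.216 CPM in WT ASO1 and 0.352, 0.0933, 0.241 and 0.220 CPM in WT ASO Control. Its log2FC of the mutation was 1.47 ± 0.441 (adjusted p = 0.018), which was not called without WT ASO Control 2 (adjusted p = 0.06).

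Adamts12 was at 5.66, 7.26, 7.13 and 15.9 CPM in Dnm2SL/+ ASO1, at 8.88 to 13.7 CPM with a median of 11.1 CPM in Dnm2SL/+ ASO Control, at 5.91 and 7.51 CPM in WT ASO1 and at 8.65, 6.56, 7.68 and 6.53 CPM in WT ASO Control. The groups of the mutation contrast did not overlap, with a log2FC of 0.62 ± 0.232 (adjusted p = 0.051, edgeR), and this gene passed the threshold in 12 of 26 alternative fits, among them without Dnm2SL/+ ASO1 4 (adjusted p = 0.0025), Dnm2SL/+ ASO1 1 (0.033), Dnm2SL/+ ASO Control 6 (0.037) or WT ASO Control 1 (0.05). ASO1 in Dnm2SL/+ gave -0.34 (adjusted p = 0.36), or -0.76 without Dnm2SL/+ ASO1 4, the library at 15.9 CPM (adjusted p = 0.0063). Adamts8 and Adamts15 lie 20110 bases apart on chromosome 9. Adamts8, an antiangiogenic proteinase, was at 19.5, 3.86, 14.7 and 7.70 CPM in Dnm2SL/+ ASO1, at 1.65 to 11.0 CPM with a median of 2.5 CPM in Dnm2SL/+ ASO Control, at 15.8 and 12.8 CPM in WT ASO1 and at 26.3, 4.42, 8.36 and 9.91 CPM in WT ASO Control. The spread within groups was wide, and the log2FC of -1.51 ± 0.578 for the mutation (adjusted p = 0.057) and 1.42 ± 0.579 for ASO1 in Dnm2SL/+ (adjusted p = 0.12) missed the threshold. Without Dnm2SL/+ ASO Control 1 they were -2.05 (adjusted p = 0.0096) and 1.96 (adjusted p = 0.022), and with the replicate block -1.53 (adjusted p = 0.015) and 1.5 (adjusted p = 0.034). The mutation contrast was also called without Dnm2SL/+ ASO1 2 or WT ASO Control 2 (adjusted p = 0.046 and 0.033). Both contrasts were called with voom, and the mutation contrast with no filter. Adamts15 gave 0.36 ± 0.308 for the mutation (adjusted p = 0.40).

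The most counted Adamts genes were Adamts1 and Adamts2. Adamts1, a versican-cleaving proteinase induced by injury and hormones, spanned 14.3 to 58.4 CPM in Dnm2SL/+ ASO1, 17.0 to 47.4 CPM in Dnm2SL/+ ASO Control, 23.9 and 31.3 CPM in WT ASO1 and 19.2 to 96.2 CPM in WT ASO Control, and the interval of the mutation was -1.54 to 0.30 on the log2 scale. Adamts2, the procollagen N-proteinase, was at 13.6 to 25.7 CPM in Dnm2SL/+ ASO1, 18.0 to 28.4 CPM in Dnm2SL/+ ASO Control, 12.2 and 13.9 CPM in WT ASO1 and 14.0 to 27.1 CPM in WT ASO Control, with an interval of -0.25 to 0.65. Adamts5, the aggrecanase that neighbours Adamts1 on chromosome 16 at a distance of 53060 bases, gave 0.0746 with an interval of -0.39 to 0.54. Adamts3, a procollagen proteinase near the count minimum, was at 0.0987 to 0.523 CPM in Dnm2SL/+ ASO1, 0.373 to 0.867 CPM in Dnm2SL/+ ASO Control, 0.248 and 0.324 CPM in WT ASO1 and 0.220 to 0.467 CPM in WT ASO Control, with a log2FC of ASO1 in Dnm2SL/+ of -1.02 ± 0.388 (adjusted p = 0.088, edgeR), or -1.49 without Dnm2SL/+ ASO1 3 (adjusted p = 0.026). Adamts4, Adamts6, Adamts9, Adamts10, Adamts14 and Adamts16 were not called for either contrast.

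Among the 5 Adamtsl genes, 1 was called. Adamtsl5, a fibrillin-binding matrix protein, was at 84.6, 72.3, 64.3 and 65.4 CPM in Dnm2SL/+ ASO1, at 84.3 to 114 CPM with a median of 102 CPM in Dnm2SL/+ ASO Control, at 48.2 and 70.3 CPM in WT ASO1 and at 61.2, 57.2, 60.3 and 64.1 CPM in WT ASO Control. Dnm2SL/+ ASO Control lay above WT ASO Control without overlap, and 1 Dnm2SL/+ ASO1 library reached into its range. Adamtsl5 rose by 0.71 ± 0.113 with the mutation (adjusted p = 0.00021, edgeR) and fell by 0.47 ± 0.112 with ASO1 in Dnm2SL/+ (adjusted p = 0.0099), and both calls held in all 26 alternative fits, while neither passed the added log2FC limit of 1. Dnm2SL/+ ASO1 over WT ASO Control gave 0.24 ± 0.121 (adjusted p = 0.27).

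Adamtsl4, whose human mutations cause lens dislocation, was at 65.5, 20.3, 47.4 and 41.3 CPM in Dnm2SL/+ ASO1, at 16.4 to 43.3 CPM with a median of 27.8 CPM in Dnm2SL/+ ASO Control, at 20 and 41.1 CPM in WT ASO1 and at 41.6, 34.4, 56.5 and 46.6 CPM in WT ASO Control, with a log2FC of the mutation of -0.64 ± 0.304 (adjusted p = 0.12, edgeR). Adamtsl1 was at 1.85 to 4.84 CPM in Dnm2SL/+ ASO1, 1.96 to 3.75 CPM in Dnm2SL/+ ASO Control, 1.1 and 3.06 CPM in WT ASO1 and 3.52 to 6.71 CPM in WT ASO Control, with -0.75 ± 0.310 (adjusted p = 0.075). The mutation contrast of Adamtsl1 was called with voom and with a fit of only the groups compared, with adjusted p down to 0.022. That of Adamtsl4 was called with voom (adjusted p = 0.035). Adamtsl3 gave 0.29 ± 0.232 (adjusted p = 0.37) and Adamtsl2 0.0425 ± 0.319 (adjusted p = 0.93).

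**Figure D5:**
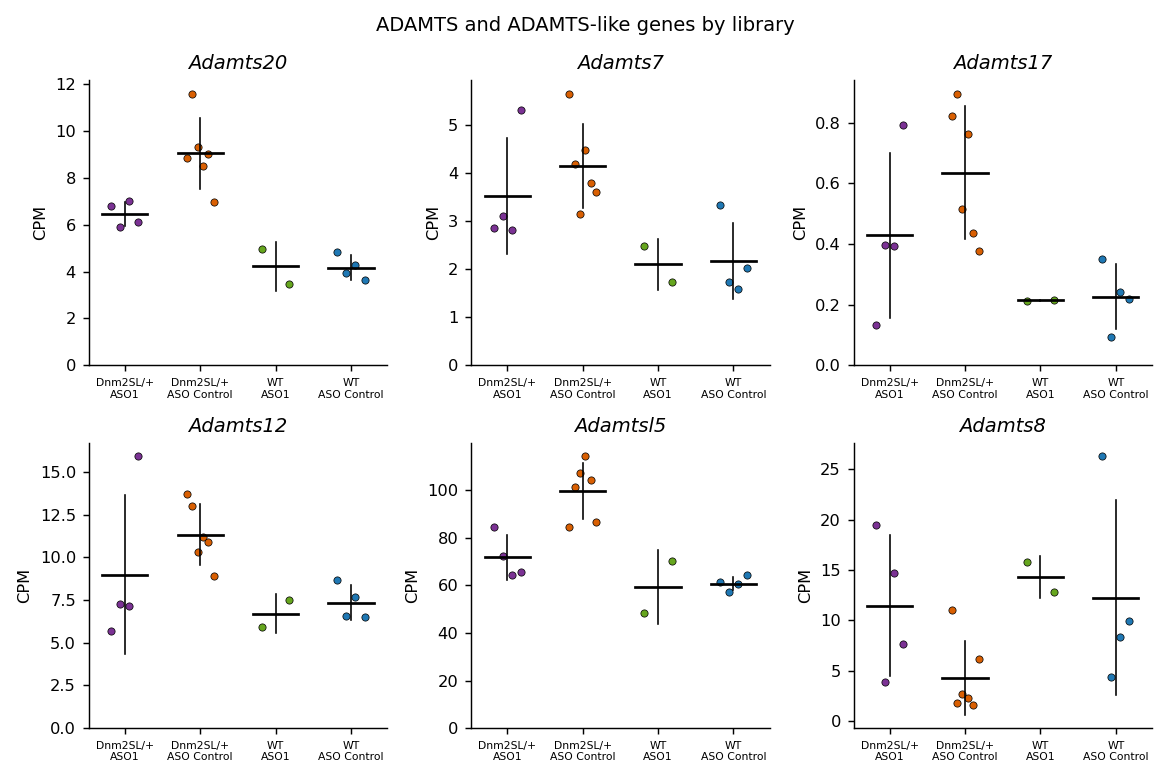
CPM (y axis) of 5 Adamts genes and Adamtsl5 in each library (points) of the 4 groups (x axis). Horizontal lines are group means and vertical lines SDs. Adamts20 was at 5.90 to 11.6 CPM in the Dnm2SL/+ libraries and at 3.49 to 4.95 CPM in the WT libraries, and Adamts8 varied widely within each group but WT ASO1.

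Dnm2SL/+ ASO1 against WT ASO Control shows what differed from WT ASO Control muscle after ASO1. The groups of this contrast differ in both genotype and oligonucleotide, whose parts cannot be told apart in it. The contrast called 4 of the 47 members, all higher, against 4.52% of all genes in either direction and 1.66% higher. They were Timp1, Mmp11, Adam17 and Adamts20, whose values are given above. The count was 0 without Dnm2SL/+ ASO1 4, WT ASO Control 2 or WT ASO Control 4, and 1 without Dnm2SL/+ ASO1 2 or WT ASO Control 3. For members that fell with ASO1 the intervals of this contrast were -0.43 to 0.41 for Timp2 and -0.37 to 0.75 for Mmp2. They were -0.87 to 0.63 for Adam23 and -0.0247 to 0.50 for Adamtsl5. Mmp19, which also fell with ASO1, gave a log2FC of 0.54 ± 0.235 in this contrast and was not called (adjusted p = 0.19, edgeR). Its interval was positive throughout, with a lower end of 0.0316. This contrast shares a group with each of the others.

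In WT muscle, ASO1 against ASO Control (2 and 4 libraries) called no member and no gene at all (0.0% of 15649 genes tested, edgeR), and DESeq2 and limma voom likewise called no member. Dnm2, the targeted gene, was not called either (adjusted p = 0.22, edgeR). Its log2FC was -1.14 ± 0.204, and every WT ASO1 library lay under every WT ASO Control library. At an unadjusted p under 0.05 there were 6 members, Adam17, Adam19, Adam33, Adamts10, Adamtsl1 and Adamtsl3, each with a negative log2FC, between -1.20 and -0.20, and 10.3% of all genes. The interval for Timp1 was -1.37 to 1.53 and for Mmp2 -1.18 to 0.23. Between the genotypes on ASO1 (4 Dnm2SL/+ and 2 WT libraries), 2 members were called, Adam17 and Mmp11, both higher in Dnm2SL/+ ASO1, against 3.51% of all genes in either direction and 1.02% higher, and DESeq2 called 9. The count was 0 without WT ASO1 1, 1 without WT ASO1 2 or Dnm2SL/+ ASO1 4, and 4 without Dnm2SL/+ ASO1 1 or WT ASO Control 1.

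Whether ASO1 acted differently in the 2 genotypes was tested by the interaction of genotype and oligonucleotide. No member was called, against 2.82% of all genes, while 11 members had an unadjusted p under 0.05 against 19.5% of all genes. The largest was Timp1, with a difference of -2.70 ± 0.777 between the log2FC of ASO1 in Dnm2SL/+ and in WT (adjusted p = 0.07, edgeR). DESeq2 called 2 members, Timp1 (adjusted p = 0.019) and Mmp28 (adjusted p = 0.048).

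Proteins that activate, inhibit or assist these proteinases were followed as a list of 35 genes, of which 29 were tested. With the mutation 10 rose and 4 fell, with a median log2FC of 0.10, against 32.1% of all genes called in either direction. With ASO1 in Dnm2SL/+ 2 rose and 3 fell, against 15.0% of all genes. Tspan17, a tetraspanin partner of Adam10, was at 10.8 to 14.5 CPM in Dnm2SL/+ ASO1, 17.7 to 18.9 CPM in Dnm2SL/+ ASO Control and 10.5 to 12.6 CPM in WT ASO Control, and it rose by 0.66 ± 0.0780 with the mutation (adjusted p = 1.7e-05, edgeR) and fell by 0.47 ± 0.0773 with ASO1 in Dnm2SL/+ (adjusted p = 0.0012). Rhbdf1, an inactive rhomboid that carries Adam17 to the cell surface, rose by 0.52 ± 0.0791 with the mutation (adjusted p = 0.00015), and its relative Rhbdf2 fell by 0.42 ± 0.0988 (adjusted p = 0.004). Bsg, basigin or the MMP inducer EMMPRIN, fell by 0.33 ± 0.0713 with the mutation (adjusted p = 0.0024) and rose by 0.34 ± 0.0712 with ASO1 in Dnm2SL/+ (adjusted p = 0.0053). Pzp, an alpha-2-macroglobulin relative made in liver and counted among the 4 that fell, was called at -3.37 ± 0.867 (adjusted p = 0.0075, edgeR). It was at 9.68 CPM in WT ASO Control 2 and under 1 CPM in all other libraries. Without that library its log2FC was -0.60 (adjusted p = 0.44). Plg and Serpinf2, of the same list, were also high in WT ASO Control 2 alone, at 5.63 and 2.52 CPM against under 1 CPM in all other libraries. With library size alone as scaling, the falls of Rhbdf2 and Bsg with the mutation were not called (adjusted p = 0.1 and 0.24).

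Of 31 known substrates, 26 were tested. With the mutation 5 rose and 2 fell, with a median log2FC of 0.28, against 32.1% of all genes called in either direction. With ASO1 in Dnm2SL/+ 1 rose and 3 fell, against 15.0% of all genes. Cx3cl1, the membrane chemokine shed by Adam10 and Adam17, was at 3.85, 4.85, 5.66 and 3.20 CPM in Dnm2SL/+ ASO1, at 10.9 to 36.2 CPM in Dnm2SL/+ ASO Control, at 1.98 and 1.76 CPM in WT ASO1 and at 2.21, 2.05, 1.45 and 1.39 CPM in WT ASO Control. It rose by 3.79 ± 0.351 (adjusted p = 2.4e-06, edgeR) with the mutation and fell by 2.5 ± 0.318 (adjusted p = 0.00023) with ASO1 in Dnm2SL/+. Ltbp1, the latent TGF-beta binding protein, gave 1.29 ± 0.205 for the mutation (adjusted p = 0.00021) and -1.39 ± 0.206 for ASO1 in Dnm2SL/+ (adjusted p = 0.00067). Fbn2, fibrillin 2, gave 2.55 ± 0.625 for the mutation (adjusted p = 0.0055) and -2.07 ± 0.595 for ASO1 in Dnm2SL/+ (adjusted p = 0.029), and its ASO1 call was lost without Dnm2SL/+ ASO1 1, 2 or 4 or Dnm2SL/+ ASO Control 2 or 4 (adjusted p up to 0.088). Of the receptors cut by Adam10, Notch1 fell by 0.38 ± 0.103 (adjusted p = 0.01) and Notch3 fell by 0.53 ± 0.154 (adjusted p = 0.014) with the mutation, neither being called with library size alone (adjusted p = 0.28 and 0.14), nor Notch3 without WT ASO Control 3 (adjusted p = 0.072).

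Markers of several other cell types were called in these contrasts, and their part in the results was not tested. Of all genes tested, 32.1% were called for the mutation and 15.0% for ASO1 in Dnm2SL/+. Of 15 macrophage markers, 7 rose and none fell with the mutation, with a median log2FC of 0.98, and 2 fell with ASO1 in Dnm2SL/+. Their summed level was 47.5 to 109 CPM in Dnm2SL/+ ASO1, 72.1 to 150 CPM in Dnm2SL/+ ASO Control, 30.3 to 70.2 CPM in WT ASO1 and 38.3 to 89.4 CPM in WT ASO Control, with none at 0 in any library. Of 10 fibro-adipogenic progenitor markers, 4 rose with the mutation (Lum, Cd34, Gsn and Pdgfra, median over the list 0.63) and Lum fell with ASO1 in Dnm2SL/+, with sums of 1050 to 1510 CPM in Dnm2SL/+ ASO1, 1610 to 2060 CPM in Dnm2SL/+ ASO Control, 480 to 866 CPM in WT ASO1 and 703 to 1610 CPM in WT ASO Control, where the library WT ASO Control 1 was the highest. Of 6 tendon markers, Scx rose with the mutation, and Scx and Thbs4 fell with ASO1 in Dnm2SL/+. Neutrophil markers were near 0, with 3 of 9 tested, none called, and a sum of at most 3.84 CPM, in the library labelled Dnm2SL/+ ASO Control 6. Ly6g, Mpo and Elane were at 0 in both WT groups.

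Of 8 endothelial markers, 1 fell with the mutation and 5 rose with ASO1 in Dnm2SL/+, and of 7 genes that mark pericytes and smooth muscle, 1 was higher and 4 lower with the mutation and 2 higher with ASO1 in Dnm2SL/+. The shares of all genes, 32.1% for the mutation and 15.0% for ASO1 in Dnm2SL/+, stand beside these counts too. Satellite cell markers gave 3 falls of 6 with the mutation and 1 with ASO1 in Dnm2SL/+, and none of the 6 Schwann or 6 adipocyte markers was called for either contrast. Of 10 genes of the muscle fibre, which define the labelled tissue, 6 fell and 1 rose with the mutation and 1 fell and 6 rose with ASO1 in Dnm2SL/+. Their sum was 178000 to 193000 CPM in Dnm2SL/+ ASO1, 145000 to 167000 CPM in Dnm2SL/+ ASO Control, 199000 to 230000 CPM in WT ASO1 and 195000 to 212000 CPM in WT ASO Control.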

How the data were processed

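RNA-seq libraries of 16 tibialis anterior muscles had been prepared with a stranded mRNA kit. Per the labels, the submitters' processing notes name HTSeq 0.6.1p1, STAR 2.5.3a, cutadapt 1.10 and Bowtie2 2.2.8, and the build mm10/GRCm38. The deposited table holds whole-number counts per gene, made by the authors and not normalised. How multiply mapped reads and strand were handled was not given in the sources used here, and each library has one column with its label. Every one of the 30037 rows carried a gene identifier.

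From these counts, genes were filtered by group (filterByExpr, 15649 kept), scaled by TMM and fitted with edgeR 4.0.16 (R 4.3.3), with a mean for each of the 4 groups over all 16 libraries and 12 residual degrees of freedom. Contrasts were tested by the quasi-likelihood F test with Benjamini-Hochberg adjustment over all genes tested. The adjusted p threshold was 0.05, SE is the log2FC divided by the square root of F, and CPM are after TMM. Each 95% interval is the log2FC plus or minus the SE times the t quantile for 12 degrees of freedom. The method was chosen from the labels, since no methods for these samples were among the sources. The script was tested on simulated data. Exon lengths, symbols and overlaps came from GENCODE for GRCm38, and promoters from RefSeq.

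The named genes were every Timp and, in each other family, the 4 members with the smallest p for the mutation, the 2 for ASO1 in Dnm2SL/+ and the 2 most counted, with 3 per direction of the partner and substrate lists. One gene of the partner list is not reported here. Adam10, Adam19, Adam33, Adamts5, Adamts8, Adamts15, Mmp11 and Mmp23 were added after their values were seen, as were the GC and TATA boxes. The members and lists were chosen with earlier results of these data known. Alternatives were RLE, upper-quartile and library-size scaling, other filters, DESeq2 1.42.0, voom of limma 3.58.1 with quality weights, a fit of the compared groups alone, a replicate block, each library left out, an added log2FC limit of 1 in size, and scaling without the 20 genes of highest count. Samples are taken as separate animals, which the labels do not state, so p-values measure the spread between these samples. No 2 libraries agreed within counting noise (chi-square per degree of freedom at least 10.7 over 120 pairs).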

Additional observations from a re-analysis of the deposited data

Results flagged for a closer look

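Within groups of 4 or 6 libraries, 10 member values lay apart from the rest of their group by Dixon's criterion, of 141 groups examined over the 47 members, where chance gives about 1 in 20. In Dnm2SL/+ ASO1, Adam8 was at 1.15 CPM in library 1, against 2.34 to 2.52 CPM in the others. Adam9 was at 94.2 CPM in library 3, against 79.8 to 80.9 CPM in the others. Library 4 was apart in Adam19, at 8.24 CPM against 3.79 to 4.32 CPM, in Adamts12, at 15.9 CPM against 5.66 to 7.26 CPM, in Adamts6, at 1.58 CPM against 1.06 to 1.12 CPM, and in Adamts7, at 5.32 CPM against 2.81 to 3.10 CPM. Adamtsl3 was at 2.47 CPM in library 2, against 4.97 to 5.04 CPM. In Dnm2SL/+ ASO Control, library 1 was apart in Mmp15, at 24.0 CPM against 31.5 to 34.9 CPM, and in Timp3, at 286 CPM against 184 to 198 CPM. In the library labelled Dnm2SL/+ ASO Control 6, Mmp9 was at 1.22 CPM, against 0.0621 to 0.198 CPM in the others of its group.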

How the results depend on the processing

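No member changed direction on a called value. For the mutation contrast, 14 members were higher and 4 lower, and these became 8 and 0 with an absolute log2FC above 1, while the lower count was 2 with library size alone and 7 with limma voom. For ASO1 in Dnm2SL/+, 2 were higher and 7 lower. The higher count was 1 with library size alone, with no filter or with only the groups compared, 4 with the replicate block, and 0 above an absolute log2FC of 1, where the lower count was 2. Dnm2SL/+ ASO1 against WT ASO Control called 4, and 1 with only the groups compared, with the replicate block or above an absolute log2FC of 1. Dnm2SL/+ ASO1 against WT ASO1 called 2. It called 5 with library size alone, 4 with more than 1 CPM in 4 libraries, 9 with DESeq2, 1 with voom or above an absolute log2FC of 1, and 0 with only the groups compared or the replicate block. The interaction called 0, and 2 with DESeq2. Without Dnm2SL/+ ASO Control 6 and WT ASO Control 1 together, chosen after seeing the data, Dnm2SL/+ ASO1 against WT ASO1 called 4 and the interaction 1. The cause of these shifts was not tested, apart from the scaling, which with library size alone moved the median of all genes by 0.226 for the mutation and -0.132 for ASO1 in Dnm2SL/+. Leaving out each library gave 12 to 17 higher and 3 to 5 lower for the mutation, 0 to 4 higher and 3 to 9 lower for ASO1 in Dnm2SL/+, 0 to 5 for Dnm2SL/+ ASO1 against WT ASO Control, 0 to 0 for ASO1 in WT, 0 to 4 for Dnm2SL/+ ASO1 against WT ASO1 and 0 to 1 for the interaction. No pairing of samples by replicate number was seen: 3 of 18 same-number correlations exceeded 0.1 (range -0.157 to 0.247), and 3 of 14 libraries correlated best with their own number. In groups this small the check cannot decide whether samples were paired. Groups of 2 and 4 libraries limit the WT ASO1 contrasts, whose exact permutation p cannot go below 0.13.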
